A study of Mus musculus with 14 samples.

Results

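The acetylcholine receptor and the proteins that gather it at the neuromuscular junction were followed through every assay of the series. Their 8 genes, Chrna1, Chrnb1, Chrnd, Chrng, Musk, Rapsn, Dok7 and Lrp4, were chosen by name and found by symbol among the 14837 genes of the input table and by Entrez identifier in the tables of immunoprecipitated RNA. All 8 had input RNA above the filter on low counts. Of 18881 m6A-RIP rows 14 belonged to 7 of the genes (Lrp4 was not listed), 15 of 19465 Igf2bp3-RIP peaks belonged to 4 genes, and 22 of 21616 Lin28a-RIP peaks to 2 genes. In RIP-seq an antibody pulls down a protein with its RNA, or methylated RNA itself, and m6A (N6-methyladenosine) is the methyl mark on adenosines within messenger RNA. RIP peaks and rows are stretches of a transcript where such reads gather.

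Muscle stem cells (MuSCs) are the resident cells that rebuild skeletal muscle fibres. The study compared Lin28a+ MuSCs, which its text says came by flow cytometry from the muscle of Lin28a-CreERT2 mice with an LSL-tdTomato reporter, with control MuSCs, labelled only as the control genotype without treatment. Cre driven from Lin28a marks cells that expressed this RNA-binding protein when Cre was active, together with their descendants. Both groups were cultured on Matrigel in DMEM with serum, and the age and number of the mice, the gate of the control cells and the preparation of the replicates are not given in the sources used here. Each group had 2 input libraries (RNA-seq), 2 m6A-RIP libraries and 2 Igf2bp3-RIP libraries, and Lin28a-RIP was made from 2 libraries of Lin28a+ MuSCs without a control counterpart. The input values sum to between 4842915 and 6220960 per library, the m6A-RIP counts to between 21350962 and 31830638, the Igf2bp3-RIP counts to between 9215355 and 34142094 and the Lin28a-RIP counts to 33908110 and 36610494. In the input table the columns of the Lin28a+ libraries bear m6A-RIP names. They were taken as input because the labels of the Lin28a+ input libraries point to that table, and every RNA change and every change relative to input rests on this assignment. In the m6A-RIP table both Lin28a+ columns bear the same name, so the Lin28a+ libraries of these assays are called A and B. The study's methods speak in general of biological replicates, in a minimum number above that of the libraries per group here. No label says that these replicates were separate cultures or animals, so the p-values measure only the spread between these libraries.

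The labelled cell type was checked against its markers. Of 12 myogenic progenitor markers 10 were listed (Chodl and Calcr were not), with a summed RNA level of 8585 to 9031 CPM (counts relative to library size) in the 4 libraries. Among these 10 markers 5 were lower and 2 higher in Lin28a+ cells (median log2 change -0.19), beside 28.7% lower and 28.1% higher of all genes tested. Myod1 made up more of the sum than any other. Pax7, the factor that defines MuSCs and 1 of the 2 higher markers, stood at 140 and 155.2 CPM in the controls and at 193.7 and 188.7 CPM in Lin28a+ cells. RNA of differentiating myocytes was plentiful too, as all 27 of their markers were listed, with sums of 8331 to 8779 CPM. Endothelial markers, of which 4 of 10 were listed without Cdh5 and Kdr, summed to at most 1.85 CPM, macrophage markers to at most 5.74 CPM, and the motor neuron genes Chat and Slc18a3 and the Schwann cell genes Sox10 and S100b were not listed.

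At the neuromuscular junction, acetylcholine from the motor nerve opens a receptor built from alpha, beta and delta subunits with a gamma subunit in fetal muscle, which epsilon replaces in adult fibres. Agrin, secreted by the nerve, binds Lrp4, which activates the kinase MuSK. MuSK acts together with Dok7, its partner inside the cell, and with rapsyn, the scaffold that anchors the receptor, to cluster receptors beneath the nerve. These genes are switched on as myoblasts differentiate, when myogenic factors such as MyoD and myogenin bind E-boxes in their promoters, and nuclei under the synapse keep them on through Ets factors that bind the N-box.

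All positions here are on GRCm38.p6. Chrna1 (ENSMUSG00000027107, the alpha subunit) lies at chr2:73563281-73580338 on the minus strand, Chrnb1 (ENSMUSG00000041189, beta) at chr11:69784036-69795966 on the minus strand, and Chrnd (ENSMUSG00000026251, delta) and Chrng (ENSMUSG00000026253, gamma) are neighbours at chr1:87190597-87200070 and chr1:87205811-87211835, 5.74 kb apart. Musk (ENSMUSG00000057280) lies at chr4:58285729-58377848, Rapsn (ENSMUSG00000002104) at chr2:91035472-91045729, Dok7 (ENSMUSG00000044716) at chr5:35056571-35087839 and Lrp4 (ENSMUSG00000027253) at chr2:91457456-91513901. RefSeq places Gm30940, a long noncoding RNA, over the end of Chrna1, and Gm13778 over the whole of Rapsn. Neither was listed in any of the tables, and the sources used here do not say whether counting used strand, so reads of these pairs cannot be told apart.

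RefSeq promoter windows, from 250 bases before to 50 bases after the start, were found for 5 of the genes (Chrna1, Chrnb1, Chrng, Musk and Dok7, the last with 2 windows). The windows of Chrna1, Chrng and Musk are shown because the RNA of these genes was about halved in Lin28a+ cells, and the first window of Dok7 because its RNA did not pass the test. Each is written 5′ to 3′ on the strand of the gene, with E-boxes (CANNTG, found on both strands at once since its complement has the same pattern) in capitals. They lie at chr2:73580289-73580588, chr1:87205561-87205860, chr4:58285712-58286011 and chr5:35056516-35056815.
Chrna1: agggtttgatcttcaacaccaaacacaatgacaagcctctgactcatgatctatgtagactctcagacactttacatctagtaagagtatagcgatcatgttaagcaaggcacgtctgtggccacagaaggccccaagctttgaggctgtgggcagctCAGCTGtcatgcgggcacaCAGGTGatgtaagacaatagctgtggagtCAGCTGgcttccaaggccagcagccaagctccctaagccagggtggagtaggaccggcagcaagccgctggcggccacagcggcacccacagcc
Chrng: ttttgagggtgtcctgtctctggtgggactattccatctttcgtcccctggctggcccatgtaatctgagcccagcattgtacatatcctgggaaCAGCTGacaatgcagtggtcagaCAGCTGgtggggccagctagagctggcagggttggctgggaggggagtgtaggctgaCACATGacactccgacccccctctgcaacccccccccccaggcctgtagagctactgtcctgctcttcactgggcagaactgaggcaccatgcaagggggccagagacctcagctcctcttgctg
Musk: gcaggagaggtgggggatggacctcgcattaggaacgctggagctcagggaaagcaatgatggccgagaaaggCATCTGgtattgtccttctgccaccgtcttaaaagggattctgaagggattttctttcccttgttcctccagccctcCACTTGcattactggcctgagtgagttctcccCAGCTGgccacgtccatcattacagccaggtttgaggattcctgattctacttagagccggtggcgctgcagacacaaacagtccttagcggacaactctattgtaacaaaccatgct
Dok7: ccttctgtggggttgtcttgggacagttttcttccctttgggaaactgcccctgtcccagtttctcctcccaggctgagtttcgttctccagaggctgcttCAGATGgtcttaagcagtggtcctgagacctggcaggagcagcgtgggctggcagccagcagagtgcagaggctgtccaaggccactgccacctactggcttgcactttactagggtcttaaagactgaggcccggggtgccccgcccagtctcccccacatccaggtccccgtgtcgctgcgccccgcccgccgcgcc

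The windows of Chrna1, Chrng, Musk and Chrnb1 each held 3 E-boxes, a number reached by 17.6% of 32817 RefSeq promoter windows, and 72.3% of windows held at least 1. In Chrna1 the form CAGCTG begins 92 and 44 bases before the start, and CAGGTG begins 73 bases before it. Chrng has CAGCTG at 155 and 132 bases before the start and CACATG at 75. In Musk the same form begins 68 bases before the start, CATCTG 177 bases and CACTTG 100 bases before it. CAGCTG, itself a form of CANNTG, was found in 16.3% of all windows and not in those of Chrnb1 and Dok7. The first Dok7 window held 1 E-box, CAGATG, and the second window none. The N-box, searched as CCGGAA on both strands, was in none of the 6 windows and in 14.9% of all windows. These matches describe the letters in the windows and not sites in use.

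The input libraries show how much RNA of each gene the cells held. RNA of 6 of the 8 genes was lower in Lin28a+ than in control MuSCs, RNA of Rapsn was higher, and Dok7 did not pass the test (edgeR's quasi-likelihood test, Benjamini-Hochberg adjusted p under 0.05 over 11317 genes). Over all genes tested 56.8% were called, 28.7% as lower and 28.1% as higher. The median log2 change was -0.63 for the 8 genes and 0.01 for all genes. The libraries of the groups did not overlap for any of the 8 genes, as for 40.8% of all genes in the lower and 43.5% in the higher direction. Fewer cells that make these RNAs and less of the RNA per cell cannot be told apart in bulk samples. Levels are CPM after TMM scaling, and since spliced lengths were not used they are compared between groups and not between genes.

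Among the receptor subunits, Chrna1 stood at 5826 and 6020 CPM in the control libraries and at 3123 and 3175 CPM in the Lin28a+ libraries. Both Lin28a+ libraries lay close together and far below the controls, and the log2 change was -0.92 ± 0.02 (SE, edgeR adjusted p = 5.7e-06). Chrng, the fetal gamma subunit, showed a fall of the same order, from 314.6 and 321.9 CPM to 171.8 and 175.8 CPM (log2 change -0.89 ± 0.03, adjusted p = 1.05e-05). Chrnb1 was at 87.93 and 90.7 CPM in the controls and at 70.66 and 67.68 CPM in Lin28a+ cells, a decrease of 23.2% (log2 change -0.38 ± 0.04, adjusted p = 0.000479). The smallest change of the subunits was that of Chrnd, at 186.2 and 195.8 CPM against 168.1 and 174.9 CPM, with a log2 change of -0.17 ± 0.03 and an adjusted p of 0.00648. Chrnd was no longer called with DESeq2 (log2 change -0.16, adjusted p = 0.286). The adult epsilon subunit Chrne was not listed in the input table.

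The receptor for agrin and its kinase were both about halved. Lrp4, the agrin receptor, had 197.4 and 201.6 CPM in the controls and 97.82 and 97.01 CPM in Lin28a+ libraries, a log2 change of -1.05 ± 0.03 (edgeR adjusted p = 8.18e-06). Musk fell from 60.16 and 58.69 CPM to 25.59 and 28.92 CPM, with the most negative log2 change of the 8 genes, -1.14 ± 0.07 (adjusted p = 7.41e-05). The 95% intervals of the log2 changes of Musk (-1.30 to -0.97), Lrp4 (-1.12 to -0.98) and Chrna1 (-0.98 to -0.87) touch or overlap from one gene to the next, and the differences between genes were not tested.

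The adaptors inside the cell did not share that decrease. Rapsn, which encodes the receptor-anchoring scaffold rapsyn, had 51.69 and 51.25 CPM in the controls and 73.42 and 75.06 CPM in Lin28a+ libraries. Both Lin28a+ libraries were above both controls, a gain of 43.0% (log2 change 0.52 ± 0.04, edgeR adjusted p = 0.000193). Dok7 had 60.89 and 62.09 CPM against 57.87 and 53.73 CPM, and its log2 change of -0.15 (95% interval -0.31 to 0.01) had an adjusted p of 0.0997. With limma-voom on the unrounded values Dok7 passed (log2 change -0.16, adjusted p = 0.0393). With a library left out its log2 change in edgeR ran from -0.21 to -0.10. The directions of the 8 genes in RNA were the same with TMM factors, DESeq2's size factors and total counts.

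**Figure D1:**
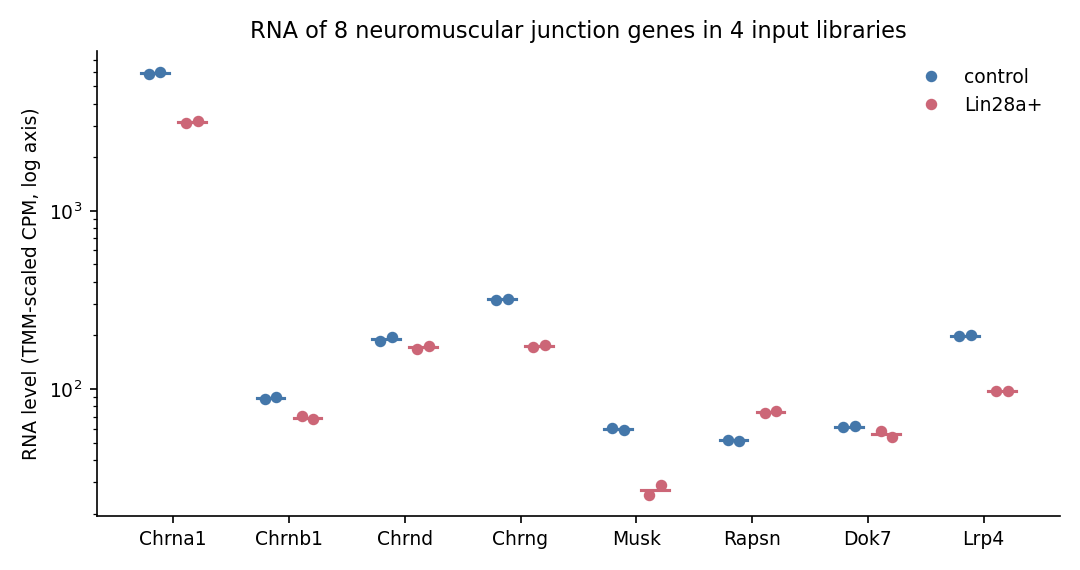
RNA level of the 8 genes in the 4 input libraries, as TMM-scaled CPM on a log axis. Points are libraries (2 per group) and bars the group means. In 7 genes both Lin28a+ points lie below both control points, and in Rapsn they lie above.

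Markers of differentiating muscle moved in both directions between the groups. Of the 27 myocyte markers, 19 were lower and 7 higher in Lin28a+ cells, with a median log2 change of -0.78, and their sum was 8586 and 8779 CPM against 8336 and 8331 CPM. Beside this and the other marker counts below, 28.7% of all genes tested were lower and 28.1% higher. Acta1, skeletal muscle actin, was at 3748 and 3843 CPM in the controls and 1838 and 1819 CPM in Lin28a+ cells. Tnnc1 (log2 change -1.39), Neb (-2.56), Ttn (-1.30) and Mylpf (-1.09) were lower too. Actc1, cardiac actin that young muscle also makes, rose from 82.42 and 79.87 CPM to 1112 and 1092 CPM (log2 change 3.75, edgeR adjusted p = 1.26e-06), and Atp2a1 (1.57), Mymx (1.54), Tnnt1 (1.48) and Myh8 (1.03) rose as well. Myog, which encodes the differentiation factor myogenin, rose from 751.9 and 778.3 CPM to 2773 and 2818 CPM (log2 change 1.86 ± 0.02, edgeR adjusted p = 1.42e-06). Summed levels of fibro-adipogenic progenitor markers were 311.8 and 326.8 CPM in the controls and 200.2 and 198.9 CPM in Lin28a+ cells, with Dcn, Lum and Dpt not listed, 1 of 6 tested markers higher and 3 lower. Pericyte or smooth muscle markers summed to 7279 and 7465 CPM against 8723 and 8715 CPM, most of it Acta2, a gene that myoblasts also express, while 3 of the 5 tested markers (Tagln, Rgs5 and Des) were lower and 2 higher, with a median log2 change of -0.53. The 2 neuron markers tested gave 1 lower gene, and Erbb3 was the 1 Schwann cell marker tested and was higher. The part of these shifts in the receptor genes was not tested.

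Other genes of the neuromuscular junction were read from the same fit, and their counts, list by list, stand beside 28.7% lower and 28.1% higher of all genes. On the ligand side Agrn, which encodes agrin, did not pass (log2 change -0.20, edgeR adjusted p = 0.224), and of 7 ligand and growth factor genes tested 2 were higher and 1 lower. Erbb3, a neuregulin receptor, rose from 76.9 and 78.25 CPM to 123.8 and 127 CPM (log2 change 0.68 ± 0.03, adjusted p = 4.08e-05). Egfr, the receptor for epidermal growth factor, fell from 5.519 and 5.982 CPM to 1.181 and 1.025 CPM (log2 change -2.37, adjusted p = 0.000165), and Fzd9, a Wnt receptor, rose at a low level (log2 change 0.92, adjusted p = 0.0142). Of the 17 other receptor subunits and genes of acetylcholine handling, 8 were listed and none reached the filter, their sums lying between 2.46 and 5.34 CPM.

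Below MuSK, 17 of 30 genes of signalling and receptor clustering were lower and 6 higher (all genes: 28.7% and 28.1%). Macf1, a linker of microtubules to actin, fell from 111.1 and 113.3 CPM to 38.78 and 39.17 CPM (log2 change -1.54 ± 0.04, edgeR adjusted p = 6.56e-06), and the kinase gene Fyn from 60.89 and 60.95 CPM to 21.65 and 21.74 CPM. Farp1 (log2 change 0.45) and Abl1, which encodes a tyrosine kinase (0.34), rose. In the dystrophin complex and postsynaptic scaffold 14 of 22 genes were lower and 2 higher. Sntb1, a syntrophin, had a log2 change of -1.68 and Itgb1, integrin beta 1, of -1.01, whereas Nos1, neuronal nitric oxide synthase, rose from 2.208 and 2.749 CPM to 27.56 and 26.66 CPM and Itga3, an integrin alpha subunit, had a log2 change of 1.28. Their medians were -0.19 and -0.52, beside 0.01 for all genes.

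Beside those same shares of 28.7% lower and 28.1% higher over all genes, 6 of 10 basal lamina genes were lower, among them Nid1 (nidogen, log2 change -1.35) and Lamb1 (a laminin beta chain, -1.12), and 4 were higher, among them Lama5 (a laminin alpha chain, 1.41) and Col4a1 (a type IV collagen chain, 0.94). Among 22 regulators of transcription, 10 were lower and 3 higher. Myog (above) rose, and Myf5 (-1.21) and Mef2a (-1.11), both muscle transcription factors, fell. Myod1 was at 4567 and 4735 CPM against 4730 and 4743 CPM and did not pass (edgeR adjusted p = 0.605). Of 11 genes of glycosylation and congenital myasthenic syndrome 4 were lower, including Myo9a (-0.94) and Prepl (-0.41), and Dpagt1, which starts N-glycan synthesis, was higher (0.37).

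The m6A-RIP libraries ask how much methylated RNA of each gene was recovered. Summed over their rows, Chrna1, Chrnb1, Chrnd, Chrng and Musk were lower in Lin28a+ cells, Rapsn was higher and Dok7 did not pass (edgeR's quasi-likelihood test). Over 9416 genes 66.3% were called, 33.8% as lower and 32.5% as higher. Scaling by total counts moved the median change of all genes by -0.10, the split changed from 3060 higher and 3179 lower to 2395 and 3766, and among the 7 genes Dok7 turned direction (log2 change 0.05 with TMM, -0.05 with total counts). Among the markers of other cells, 4 endothelial ones were listed in m6A-RIP, with sums of 62.25 and 66.64 CPM in the controls and 82.45 and 87.41 CPM in Lin28a+ libraries, and 3 of them (Cdh5, Cldn5 and Egfl7) were higher. Fibro-adipogenic progenitor markers went from 146.4 and 147.8 CPM to 64.93 and 68.75 CPM (3 of 4 lower, 0 higher). Neuron markers went from 21.78 and 22.7 CPM to 6.827 and 7.865 CPM (1 of 2 lower, 0 higher). Pericyte or smooth muscle markers summed to 980.9 and 973.1 CPM against 1207 and 1182 CPM (2 of 4 lower, 1 higher). Of 23 myocyte markers 16 were lower and 5 higher. The part of these markers in the values of the 7 genes was not tested. In 6 of the 7 genes the libraries of the groups did not overlap, as for 41.4% of all genes in the lower direction and 41.2% in the higher.

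Chrna1 had 844.7 and 880.6 CPM in the controls and 439.8 and 471.5 CPM in Lin28a+ m6A-RIP libraries, a log2 change of -0.92 ± 0.04 (edgeR adjusted p = 2.5e-09). Its change in m6A-RIP thus had the size of its change in RNA. Chrng had 117 and 120.9 CPM against 94.1 and 89.38 CPM, a log2 change of -0.38 ± 0.05 (adjusted p = 1.5e-05), where its RNA had changed by -0.89. Musk, with 12.07 and 12.66 CPM against 5.871 and 7.798 CPM, had a log2 change of -0.84 ± 0.17 (adjusted p = 0.000732). For all 3 genes both Lin28a+ libraries lay below both controls.

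Chrnb1 was at 29.27 and 22.97 CPM in the controls and 17.96 and 20.26 CPM in Lin28a+ libraries (log2 change -0.46 ± 0.12, edgeR adjusted p = 0.00583). Control library 1 was the highest of the 4, and without it the log2 change was -0.26 with an adjusted p of 0.123. Chrnd, with 15.23 and 16.55 CPM against 11.83 and 13.23 CPM, had a log2 change of -0.34 ± 0.13 (adjusted p = 0.0382) and was lost with DESeq2 (adjusted p = 0.0647), without control library 2 (0.161) and without Lin28a+ library A (0.156). Rapsn rose from 59.85 and 64.25 CPM to 75.36 and 77.65 CPM (log2 change 0.31 ± 0.06, adjusted p = 0.000509). Dok7, at 149 and 144.1 CPM against 148.2 and 155.2 CPM, overlapped between groups (adjusted p = 0.325).

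Rows of a single gene could move apart, and Chrng is the clearest case. The row annotated to transcript ENSMUST00000185763 held 69.26 and 69.62 CPM in the controls and 70.5 and 66.93 CPM in Lin28a+ libraries, and the groups overlapped (log2 change -0.02 ± 0.06, edgeR adjusted p = 0.818). The row annotated to ENSMUST00000186038 held 45.92 and 48.85 CPM against 25.51 and 23.96 CPM, and its log2 change was -0.94 ± 0.08 (adjusted p = 1.28e-07). The 95% intervals were -0.14 to 0.10 and -1.10 to -0.77, while the difference between the rows was not itself tested. With total counts the median of all rows shifted by -0.15 (from 5665 higher and 6005 lower rows to 3842 and 7638), and the first row was then called lower (log2 change -0.17, adjusted p = 0.0171). The m6A-RIP table gives no positions, so where on Chrng the rows lie was not analysed here.

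The 4 rows of Chrna1 were all annotated to 1 transcript, and all were lower, with log2 changes from -0.66 to -1.06. Its first row held 334 and 341.7 CPM in the controls and 191.9 and 197.7 CPM in Lin28a+ libraries. In Dok7, rows 1 and 2 did not pass (log2 changes 0.14 and 0.09), and row 3, with 1.642 and 1.771 CPM against 3.017 and 2.779 CPM, was higher (log2 change 0.76 ± 0.27, edgeR adjusted p = 0.0251) on counts of 55 and 40 against 68 and 82. That call was lost with DESeq2 (adjusted p = 0.0839), with total counts (0.0669) and without control library 1 (0.136), control library 2 (0.0704) or Lin28a+ library A (0.0669). Of the 14 rows 7 were lower and 2 higher, and of all rows 61.8% were called, 31.8% as lower and 30% as higher. In 13 of the 14 rows the groups did not overlap, as in 40.7% of all rows in the lower and 40% in the higher direction. The rows of Chrnb1 had log2 changes of -0.33 (adjusted p = 0.0669) and -0.50 (0.0149), and the second was lost without control library 1 (0.162) and without Lin28a+ library A (0.128). The first row of Chrnb1 was called without control library 2 (-0.51, adjusted p = 0.00685) and stood at -0.10 without control library 1. Chrnd (-0.28, adjusted p = 0.0657), Musk and Rapsn had 1 row each. Under total counts 10 of the 14 rows were lower and 1 higher, with the first row of Chrnb1 (-0.48, adjusted p = 0.0104) and that of Chrnd (-0.44, adjusted p = 0.00804) among the lower ones.

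**Figure D2:**
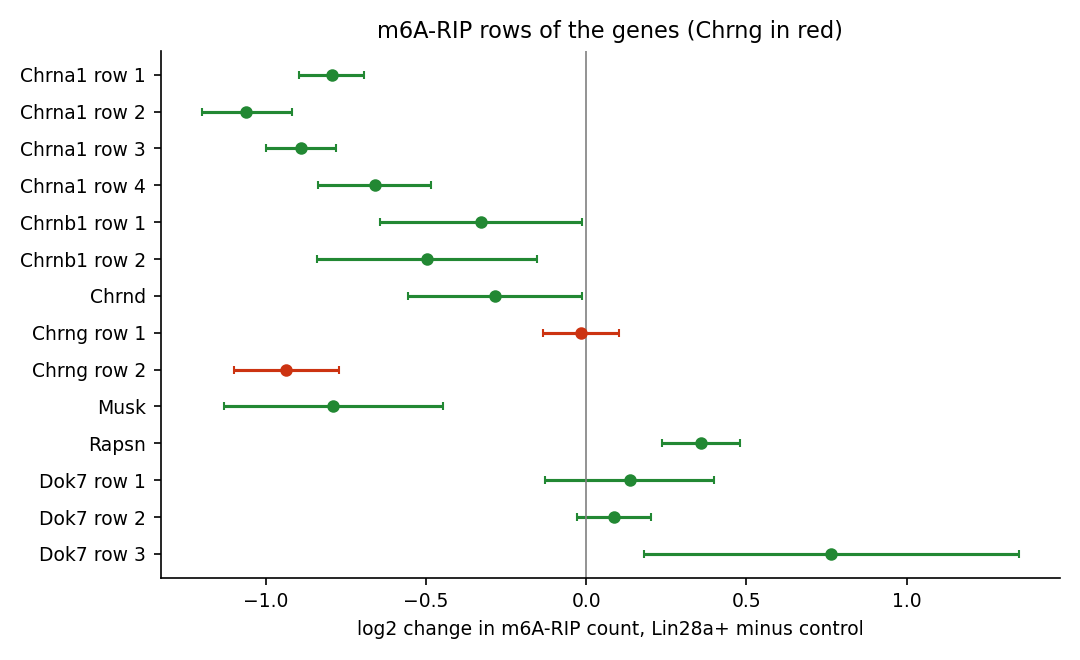
Log2 change (Lin28a+ minus control, edgeR) of the 14 m6A-RIP rows of 7 genes, with 95% intervals, n = 2 libraries per group. The rows of Chrng (red) lie at -0.02 and -0.94, and the 4 rows of Chrna1 between -0.66 and -1.06. With total counts in place of TMM rows 1 and 2 of Dok7 turn to the lower side.

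Because m6A-RIP counts follow the amount of RNA, the change was also tested relative to input, in 1 model over both assays that shares the input libraries with the comparison above. Chrng was the only one of 7 genes called: its m6A-RIP signal per RNA was higher in Lin28a+ cells by 0.49 ± 0.05 on the log2 scale (edgeR adjusted p = 0.000256), on the library values given above. Over 7950 genes 7.16% were called, 3.06% as higher and 4.1% as lower. This call for Chrng was kept under all 10 alternatives, with log2 changes of 0.46 to 0.54 and adjusted p-values of 0.000157 to 0.00278. It rests on the sum of both rows, of which the first had a log2 change of -0.02 and the second of -0.94.

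The other 6 genes had log2 differences relative to input between -0.23 and 0.29. Rapsn was at -0.23 (95% interval -0.40 to -0.05, edgeR adjusted p = 0.139) and passed only without m6A-RIP control library 1 (-0.28, adjusted p = 0.0437). Dok7 was at 0.19 (0.02 to 0.35, adjusted p = 0.218) and Musk at 0.29 (-0.09 to 0.67, adjusted p = 0.498). The value of Musk was 0.056 without m6A-RIP Lin28a+ library B and 0.46 without library A. For Chrna1 the difference was -0.01 with an interval of -0.12 to 0.10, which turned positive with total counts (0.0016). Chrnb1 (-0.09) and Chrnd (-0.17) had adjusted p-values of 0.888 and 0.346. Without m6A-RIP Lin28a+ library A Chrnd was at -0.10, and without library B at -0.26.

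**Figure D3:**
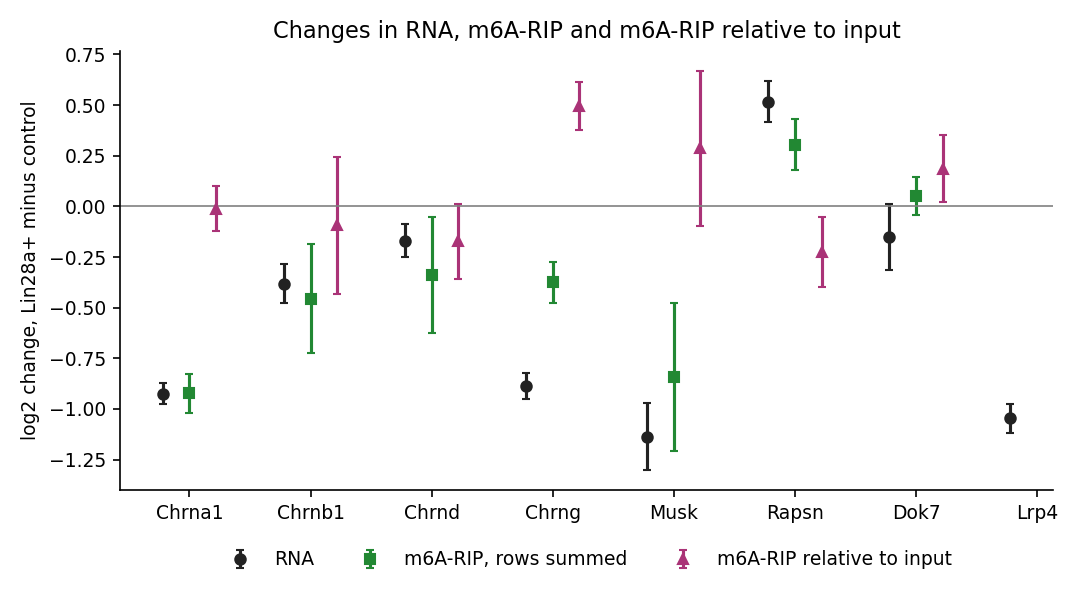
Log2 change (Lin28a+ minus control, edgeR) with 95% intervals for RNA (circles), m6A-RIP summed over rows (squares) and m6A-RIP relative to input (triangles), n = 2 libraries per group and assay. Chrng is the gene whose triangle (0.49) passed the test, and Lrp4 has no m6A-RIP row. With total counts the Dok7 square and the Chrna1 triangle change side of 0.

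Within a group the ratio of m6A-RIP to input CPM placed most of these genes low. On the scale of log2(CPM + 1), the ratio in control cells was -3.51 ± 0.09 for Chrnd (SD from 2 libraries per assay), -2.78 ± 0.05 for Chrna1, -2.18 ± 0.05 for Musk, -1.75 ± 0.24 for Chrnb1 and -1.41 ± 0.04 for Chrng. The median of 7950 genes was 0.65, and only 1.87% of genes had a lower ratio than Chrnd and 4.04% a lower one than Chrna1. Rapsn stood at 0.26 ± 0.07 and Dok7 at 1.24 ± 0.04, the latter above 64.9% of genes. In Lin28a+ cells the order of the 7 genes was the same, with Chrng at -0.92 ± 0.06, and Musk (-1.86 ± 0.28) and Chrnb1 (-1.81 ± 0.13) no longer differed beyond their spread. The ratio depends on which rows the m6A-RIP table lists for a gene.

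Of the junction genes beyond these 8, the m6A-RIP table held fewer. In m6A-RIP 15 of 28 signalling genes were lower and 6 higher, 11 of 15 scaffold genes lower and 2 higher, and 12 of 18 transcription regulators lower and 4 higher, beside 33.8% lower and 32.5% higher of all 9416 genes. The basal lamina gave 4 lower and 2 higher of 7 genes, glycosylation 4 lower and 1 higher of 6, and the ligand list 1 lower and 1 higher of 6. Macf1 (log2 change -1.58) and Fyn (-1.43) fell and Dvl2, which transmits Wnt signals, rose (0.38). In the scaffold list Itgb1 (-1.01) and Plec (-0.57) fell and Nos1 (3.23) rose, and Chrna10, a receptor subunit of the inner ear, was lower (-0.23). Relative to input, Egfr (2.53), Etv4 (1.29), Lamb1 (0.70) and Nid2 (0.47) were among those called higher, and Col4a1 (-0.22) was called lower. The RNA of Egfr (-2.37), Etv4 (-1.76), Lamb1 (-1.12) and Nid2 (-0.59) was lower. In m6A-RIP itself Etv4 (-0.47), Lamb1 (-0.41) and Nid2 (-0.10) did not rise. Egfr did not pass there (0.16, edgeR adjusted p = 0.715), at 0.81 to 1.23 CPM.

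Genes with the most similar course over the 8 input and m6A-RIP libraries were sought among 7949 genes, by the root mean square difference of log2(CPM + 1) centred within each assay. Nearest to Chrna1 were Akap9 (0.016), Serpinf1 (0.026) and Cdon (0.028), and nearest to Musk were Itgav (0.043), Tead1 (0.081) and Dlg1 (0.084). Chrng was followed by Nrp2 (0.048), Rab10 (0.054) and Ugp2 (0.055), and Chrnb1 by Capza2 (0.038), Ints6 (0.053) and Ddx50 (0.054). For Chrnd they were Cbx5 (0.020), Acadl (0.030) and Hmgn3 (0.031), for Rapsn D17H6S53E, Erh and Atp5b (each 0.025), and for Dok7 Ing2 (0.019), Stk38 (0.030) and Ap1s1 (0.034).

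Igf2bp3, which reads m6A on messenger RNA, had peaks on 4 of the 8 genes, where 32.9% of the genes tested in RNA had at least 1. Chrna1 had 3 peaks between chr2:73566818 and 73570742, Chrnb1 had 3, Lrp4 1, and Musk 8 spread over 69.9 kb from chr4:58285830 to 58355748. The first Musk peak, chr4:58285830-58286099, overlaps the promoter window printed above. It begins 0.101 kb inside the gene as placed above, because the window belongs to a RefSeq start that lies within those bounds. The third peak listed for Chrnb1, chr11:69796523-69796739, lies outside the gene and within Fgf11 (chr11:69796068-69802944), so its assignment is uncertain. Peak sequences and the exons under the peaks were not analysed here.

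None of the 15 peaks passed the test between groups in edgeR without a replicate block (adjusted p under 0.05). Of all 19465 peaks 0.123% did, 0.0616% in each direction. At an unadjusted p under 0.05 edgeR counted 3 of the 15, all lower, where 5.22% of all peaks passed and 3.2% were lower. DESeq2, at an adjusted p under 0.05, called 1 of the 15 and 263 peaks in all. With the replicate number as a block, edgeR called 9 of the 15 and 1988 peaks in all. The 9 lay on Chrna1, Musk and Lrp4 and were all lower, while no label ties the number to a batch. The fitted log2 change was below 0 for each of the 15 peaks, from -0.17 to -1.49, and the RNA of the 4 genes was lower as well. The value of -0.17, at peak 2 of Chrnb1, ran from -0.79 to 0.27 with a library left out. The libraries of the groups did not overlap in 11 of the 15 peaks, all lower in Lin28a+ cells, as for 16.8% of all peaks in that direction. Peaks of 1 gene share their RNA and are not independent.

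The single Lrp4 peak, chr2:91490210-91490534, held 29.24 and 36.37 CPM in the controls and 12.8 and 10.65 CPM in Lin28a+ libraries. Both Lin28a+ libraries were far below both controls. The log2 change was -1.49 ± 0.29 with an edgeR adjusted p of 0.224, while DESeq2 gave an adjusted p of 0.0118. Relative to input, Lrp4 was at -0.70 (95% interval -1.23 to -0.16, edgeR adjusted p = 0.132), and without Igf2bp3-RIP control library 1 it passed (-0.89, adjusted p = 0.0459), whereas without control library 2 it was at -0.45 (adjusted p = 0.107). Over the 8 libraries left out in turn its adjusted p reached 0.409.

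Chrna1 carried the strongest of these peaks. Its second peak, chr2:73568155-73568435, held 627.7 and 466.1 CPM in the controls and 494.9 and 271 CPM in Lin28a+ libraries, which overlapped (log2 change -0.51, 95% interval -1.43 to 0.40). That change was -0.14 without Lin28a+ library 2 and -1.01 without Lin28a+ library 1. In the third peak, chr2:73570535-73570742, values of 433 and 413.4 CPM in control lay above 340.7 and 200.9 CPM in Lin28a+ libraries (log2 change -0.64, edgeR adjusted p of 1), and the change was -0.31 without Lin28a+ library 2 and -1.07 without Lin28a+ library 1. Over its peaks Chrna1 summed to more than 97.1% of the 4527 genes of the table.

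Among the 8 Musk peaks the log2 changes ran from -0.55 to -0.89, and single libraries moved them widely, the first from -0.22 (without Lin28a+ library 2) to -1.37 (without Lin28a+ library 1) and the eighth from -0.23 (without control library 2) to -1.21 (without control library 1). In the fifth, chr4:58333400-58333661, control libraries had 53.75 and 92.92 CPM and Lin28a+ libraries 43.09 and 36.16 CPM (log2 change -0.89 ± 0.35, edgeR adjusted p = 0.905). Control library 1 was below control library 2 in 7 of the Musk peaks and above it in the first, at 77.28 and 63.62 CPM. The 2 libraries of a group differed far more in Igf2bp3-RIP than in the other assays, with a biological coefficient of variation of 27.9% over all peaks against 2.48% in RNA and 5.74% in m6A-RIP. Relative to input, Musk (0.11, 95% interval -0.69 to 0.90), Chrna1 (0.15, -0.53 to 0.82) and Chrnb1 (-0.06, -0.51 to 0.39) gave wide intervals, and none of the 4 genes passed in edgeR, where 1.04% of 3927 genes did (0.688% lower and 0.357% higher). Before adjustment, 24.2% of all genes had a p under 0.05, 11.6% in the lower direction, and of the 4 genes 1 did, Lrp4. With total counts all genes shifted by 0.14 in that comparison and the split of calls went from 14 higher and 27 lower to 33 and 13.

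**Figure D4:**
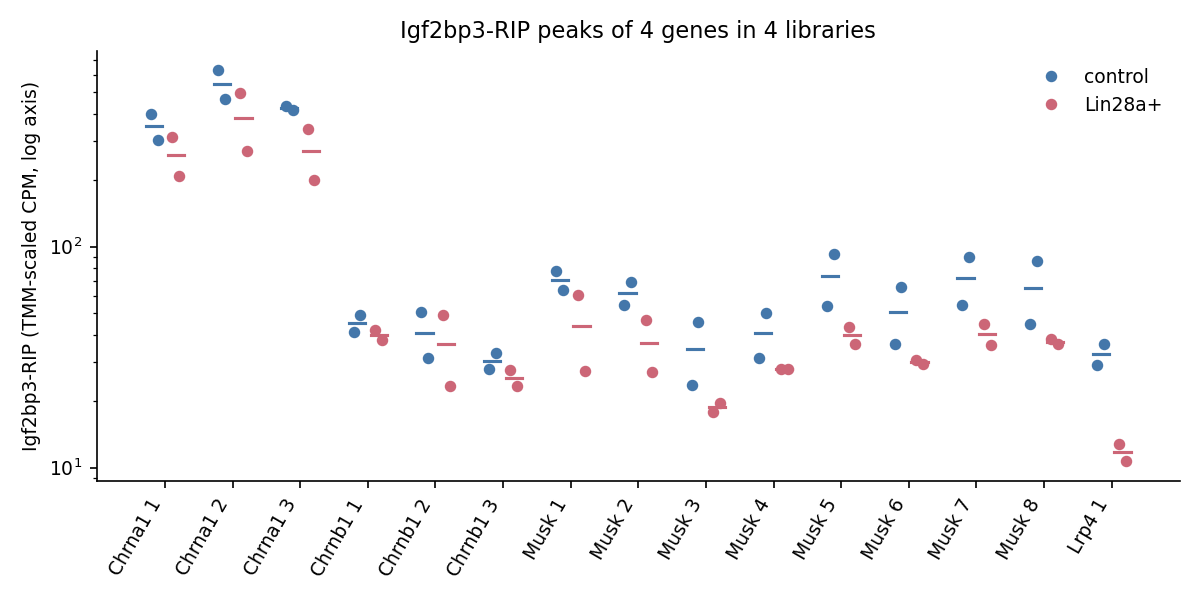
Igf2bp3-RIP level of the 15 peaks of Chrna1, Chrnb1, Musk and Lrp4 in 4 libraries, as TMM-scaled CPM on a log axis, with peaks of a gene numbered by position, points for libraries and bars for group means. The Lrp4 peak shows the widest gap between groups (29.24 and 36.37 against 12.8 and 10.65), and the control points of Musk lie far apart.

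Lin28a-RIP peaks were listed for 2 of the 8 genes in Lin28a+ cells, where 25.4% of the genes tested in RNA had a Lin28a-RIP peak. Lrp4 had 19 peaks, against a median of 3 for the 3493 genes of the table, and ranked 194th by their number. They cover 6584 bases within 30.1 kb, from chr2:91470940 to 91501080. Each held 474 to 1660 counts per library, and together they summed to 502.5 and 485.8 CPM in the 2 libraries. Per length the peaks ranged from 49.8 to 120 CPM per kb with a median of 75.1, beside 63.2 for all peaks of the table. Lrp4 thus stood out by the number of its peaks more than by the signal per length. The number was not set against gene length, and Lrp4 spans 56446 bases.

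The 3 Lin28a-RIP peaks of Chrnb1 summed to 92.3 and 90.39 CPM, with 777 to 1470 counts per peak and library and 90.1 to 112 CPM per kb. Chrna1, Chrnd, Chrng, Musk, Rapsn and Dok7 had no Lin28a-RIP peak in the table, which lists called peaks only. Without Lin28a-RIP of control cells, or counts outside peaks, no comparison between groups could be made.

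Peaks of both proteins were listed for Chrnb1 and Lrp4. Among the 22 Lin28a-RIP peaks, 3 shared 1 base or more with a peak of Igf2bp3, 2 in Chrnb1 and 1 in Lrp4, where 52.4% of the whole table did. In Lrp4 the peak at chr2:91490176-91490692 contains the Igf2bp3-RIP peak described above. From the other side, 3 of the 15 Igf2bp3-RIP peaks did so with Lin28a, against 60.4% of all. The count of 3 stayed at 3 when each peak had to cover 50% of the other, and also among peaks that reached 100 counts in each library.

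**Figure D5:**
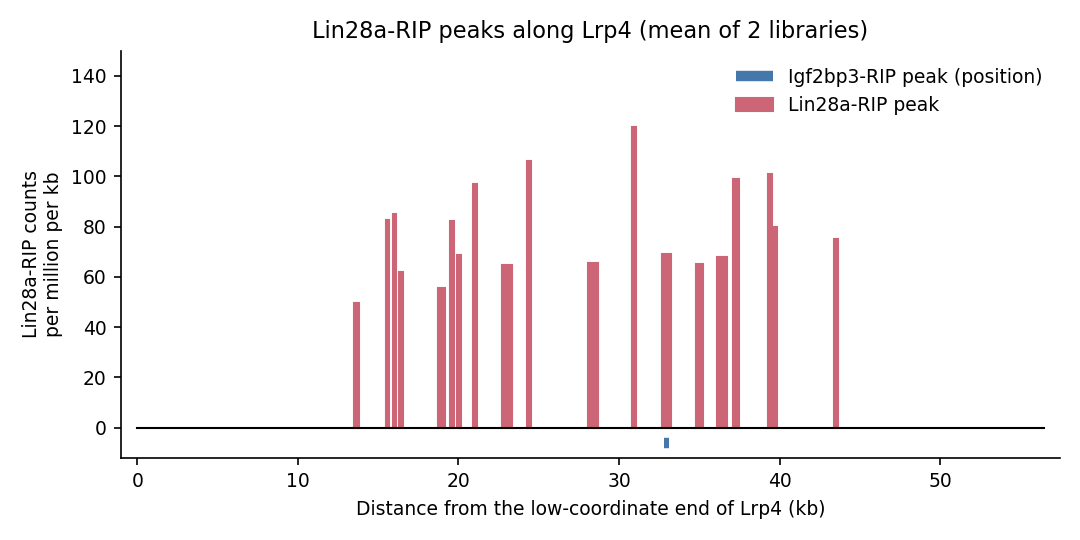
Lin28a-RIP peaks along Lrp4 in Lin28a+ cells, with distance from the low-coordinate end of the gene in kb and the mean of 2 libraries in CPM per kb. The 19 bars span 30.1 kb between 49.8 and 120, and the 1 Igf2bp3-RIP peak (blue) lies under one of them.

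Among the other 102 junction genes tested in RNA, 47 had a Lin28a-RIP peak, 60 an Igf2bp3-RIP peak and 77 an m6A-RIP row, where the shares of all tested genes were 25.4%, 32.9% and 65.6%. All 10 basal lamina genes had a Lin28a-RIP peak, whereas of 30 signalling genes 15 did, of 22 scaffold genes 8, of 22 transcription regulators 10, of 11 glycosylation genes 3 and of 7 ligand genes 1. Macf1, Itgb1, Nid1 and Mef2a, all of which were lower in RNA, were among those listed for both proteins. So were Abl1, Col4a1 and Col4a2, which were higher in RNA (log2 changes 0.34, 0.94 and 0.73). Of the 8 receptor and MuSK pathway genes 7 had an m6A-RIP row.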

How the data were processed

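RNA was measured in input libraries and in m6A-RIP, Igf2bp3-RIP and Lin28a-RIP libraries of MuSCs, with 2 libraries per group. The authors deposited unscaled estimated counts of genes for the input, and whole-number counts of rows or peaks for the RIP libraries. The submitters' processing notes name HISAT2 2.0.4, MACS2 1.4.3, DESeq2 1.42.0 and both GRCh38 and mm10. The study's text names only the human build, whereas the identifiers are those of mouse, and peaks were read as GRCm38 positions because those of the 8 genes, except 1 of Chrnb1, fall on their RefSeq genes there. The counting program, the peak threshold and any pooling of replicates before peaks were called are not given in the sources used here. No molecular identifiers are mentioned, so counts are of reads and not of molecules.

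edgeR 4.0.16 under R 4.3.3 gave the main tests (quasi-likelihood test, TMM factors, filterByExpr, Benjamini-Hochberg adjustment, threshold 0.05), fitted on whole tables, with input values rounded to whole numbers. Rows of a gene were summed for the gene test of m6A-RIP. Changes relative to input came from the interaction of cells and assay. Standard errors are those that go with the printed p. Alternatives were DESeq2 1.42.0, other scaling, other filters (no filter, or a minimum of 10 counts per library), limma-voom (limma 3.58.1), a replicate block for Igf2bp3-RIP, a pseudocount of 0.1 CPM in place of 1 CPM, and fits without each single library. The main edgeR tests, other than that of Igf2bp3-RIP relative to input, were also run on simulated counts. Simulated m6A-RIP counts had less spread than the measured ones, and the outcome is not reported here. Promoters and gene positions are from RefSeq, GRCm38.p6. Of the rows, 99.96% to 99.98% matched a symbol.

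The text names the 8 genes in full and, of each list of other junction genes, at most 2 higher and 2 lower genes, taken by p from the called genes without overlap between the groups' libraries, and 3 genes of similar course per gene. The 8 genes, the lists and the markers were chosen with earlier results of these data known. Agrn, Myod1 and the genes listed for both proteins were named outside that rule, after their values were seen. Lin28a itself was not analysed here, and some genes the rule would name are not reported here.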

Additional observations from a re-analysis of the deposited data

How the results depend on the processing

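In RNA the directions of the 8 genes and the calls of all but Chrnd and Dok7 held under the 10 alternatives run, and DESeq2 called 3062 genes in place of 6432. Of member rows in m6A-RIP, 1 was called higher in place of 2 with DESeq2 and with total counts, and 1 to 2 with a library left out, while 10 were called lower in place of 7 with total counts. Values that turned sign were small: in m6A-RIP with total counts, Dok7 (-0.052) and its rows 1 (-0.018) and 2 (-0.067), in Chrng row 1 with a library left out (-0.050 to 0.023), and relative to input Chrna1 with total counts (0.0016), with at least 10 counts in every library (0.017) and with a library left out (-0.059 to 0.040), and Chrnb1 with a library left out (-0.24 to 0.11). With 1 library left out, 300 to 620 genes were called relative to input in place of 569, and 0 to 1 of the members as lower.

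Igf2bp3-RIP results depended most on the setting. Peaks called went from 24 to 263 with DESeq2, to 0 with at least 10 counts in every library and to 108 to 193 with a library left out. With the replicate block 1988 peaks were called, 9 of them on these genes (Chrna1 1, Musk 7, Lrp4 1), all lower, and with DESeq2 1. Same-numbered libraries of the groups deviated together over 19465 peaks (Pearson's r 0.703, with 2 pairs), while no label ties the number to a batch. Chrnb1 peak 2 ran from -0.79 to 0.27 with a library left out. Relative to input, genes called went from 41 to 0 when only peaks overlapping their gene were used and to between 0 and 570 with a library left out, members called lower to between 0 and 1, and Chrnb1 turned to 0.086 with total counts. Leaving libraries out moved Chrna1 (-0.16 to 0.44), Musk (-0.21 to 0.51) and Chrnb1 (-0.21 to 0.13) across 0. For these changes the cause was not tested. For the input and m6A-RIP no paired analysis was made. The Lin28a+ input columns carry the numbers of m6A-RIP names, which were not taken as input replicate numbers. Both Lin28a+ columns of m6A-RIP bear the same name. With 2 libraries per group, each library has a large part in every value.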
